A study of Ovis aries with 9 samples.

Results

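Fragments of the nuclear leucine tRNAs were described in small RNA from the sperm of F1 rams. A sequence was counted as a tRNA-Leu fragment when its deposited annotation named a mature nuclear tRNA-Leu in sense, whatever the end of the tRNA it came from. The annotation named 5 such tRNAs, called by their anticodons Leu-AAG, Leu-TAG, Leu-CAA, Leu-CAG and Leu-TAA, out of 54 nuclear tRNA names and 76 tRNA names in all. The one listed as mature-tRNA-Leu-TAA in the files was chosen by its read level in RES against CON in earlier results of these data, so levels are given as a description with no test.

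The study compared wild-type sheep sperm of groups named for how the mothers were fed in gestation. OVER stands for over feeding, RES for restricted feeding and CON for standard feeding. Each group has 3 labelled samples, but within a group the 3 tables were identical in their sequences and reads. Each group was therefore 1 library here, no p-value could be had, and intervals cover counting error only. The files do not say whether a table came from 1 animal or a pool. The sperm came from semen treated with a detergent buffer against other cells, and all 3 groups shared that treatment. Ages of the rams were not used here.

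Leucine tRNAs belong with the serine tRNAs to the class of long tRNAs, whose extra length lies in the variable arm between the anticodon arm and the T arm. Nucleases cut tRNAs into fragments. The best known are long 5′ fragments cut in the anticodon loop by angiogenin and related enzymes, and mammalian sperm is rich in 5′ fragments. In mammals the first anticodon base of Leu-AAG is converted from adenosine to inosine by ADAT2 and ADAT3, and reverse transcriptase reads inosine as G. The 5 nuclear names differ in the leucine codons they read, Leu-TAA and Leu-CAA being the ones for TTA and TTG.

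The libraries held 8287937 reads in OVER, 13160116 in RES and 9983895 in CON, of lengths from 15 to 42 nt. They differed in short RNA: reads of 15 to 20 nt made up 29.6% of all reads in OVER, 10.3% in RES and 5.98% in CON. Of the marker miRNAs for other cells, only the epithelial mir-200a, mir-200b and mir-200c occurred as names in the annotation. In reads scaled to a library of 1000000 reads (RPM), they summed to 1094 RPM in OVER, 133.9 RPM in RES and 463.9 RPM in CON. The germ cell markers mir-34c and mir-449a and the blood cell markers mir-223, mir-451 and mir-486 did not occur as names, so the labelled cell type could not be checked on them. The part of short RNA and of epithelial RNA in the results below was not tested beyond the length alternatives given.

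The sequences that the results below refer to are shown first. They are common or most different reads of their kinds, read from the deposited tables, in sheep RNA written with T for U. In the 5′ fragments the capitals mark the bases beyond the common 16 nt form.
Leu-AAG and Leu-TAG 5′, 16 nt: ggtagcgtggccgagc
Leu-AAG and Leu-TAG 5′, 25 nt: ggtagcgtggccgagcGGTCTAAGG
Leu-CAG and Leu-CAA 5′, 16 nt: gtcaggatggccgagc
Leu-CAG and Leu-CAA 5′, 25 nt: gtcaggatggccgagcGGTCTAAGG
Leu-TAA 5′, 24 nt: accaggatggccgagtGGTTAAGG

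In the next internal fragments the capitals mark the anticodon triplet. They are shown because the triplet differs between the 33 nt reads of Leu-AAG and Leu-TAG. Those 33 nt reads also differ at a base outside the triplet, which is not marked.
Leu-AAG internal, 33 nt: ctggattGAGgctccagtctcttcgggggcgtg
Leu-AAG and Leu-TAG internal, 15 nt: ctggattGAGgctcc
Leu-TAG internal, 33 nt: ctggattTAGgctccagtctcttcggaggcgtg
Leu-TAA internal, 24 nt: ttggactTAAgatccaatggacgt

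The last internal fragments lie in and after the variable arm. They are shown because they end with the same 6 bases, in capitals, in different isoacceptors.
Leu-TAA internal, 23 nt: aatggacgtatgtccgcGTGGGT
Leu-TAA internal, 22 nt: atggacgtatgtccgcGTGGGT
Leu-CAA internal, 17 nt: cgtatggaggcGTGGGT
Leu-CAA and Leu-CAG internal, 15 nt: cttggaggcGTGGGT

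Leu fragments were a small share of the tRNA fragments and were lower in OVER than in CON. They held 16427 reads of 1271 distinct sequences in OVER, 33132 reads of 1388 sequences in RES and 27274 reads of 1110 sequences in CON. That was 1982 RPM in OVER (exact Poisson 95% interval 1952 to 2013), 2518 RPM in RES (2491 to 2545) and 2732 RPM in CON (2699 to 2764). The log2 ratio was -0.46 for OVER over CON, -0.12 for RES over CON and -0.35 for OVER over RES. The order of the libraries was OVER, RES, CON from low to high, with no overlap of the counting intervals. All nuclear tRNA fragments together differed more, with a log2 ratio of -1.09 for OVER over CON and -0.62 for RES over CON. As a share of nuclear tRNA reads, Leu fragments made up 1.63% in OVER, 1.496% in RES and 1.06% in CON.

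The isoacceptors did not move together. Leu-AAG, the most abundant, had 1309 RPM in OVER, 1863 RPM in RES and 2286 RPM in CON. Leu-TAG had 983.0 RPM in OVER, 677.0 RPM in RES and 461.1 RPM in CON. Thus Leu-AAG was lowest in OVER and Leu-TAG highest there, with log2 ratios of OVER over CON of -0.80 and 1.09. Leu-CAA had 413.9 RPM in OVER, 212.6 RPM in RES and 179.1 RPM in CON. Leu-CAG had 322.9 RPM in OVER, 197.2 RPM in RES and 173.4 RPM in CON. Both followed the order of Leu-TAG, with log2 ratios of OVER over CON of 1.21 for Leu-CAA and 0.90 for Leu-CAG. Leu-TAA alone of the 5 was highest in RES, at 318.8 RPM (309.3 to 328.6), against 178.5 RPM in OVER (169.5 to 187.8) and 116.4 RPM in CON (109.8 to 123.3). Its log2 ratio of RES over CON was 1.45 (1.36 to 1.55), a 2.74-fold higher level, and its ratio of OVER over CON was 0.62.

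The scale and the lengths counted changed some of these directions. Relative to RPM, TMM factors over the tRNAs moved every log2 ratio of OVER over CON by -0.38 and DESeq2 size factors by -0.70, which turned the ratio of Leu-TAA to -0.082 with the DESeq2 factors. In RES over CON, they moved the ratios by 0.032 and -0.12. In reads of 25 to 40 nt alone, all 5 isoacceptors were lower in OVER than in CON, with log2 ratios of -2.16 for Leu-AAG, -1.39 for Leu-TAG, -0.62 for Leu-CAA, -0.55 for Leu-CAG and -0.26 for Leu-TAA. In those lengths all 5 were also lower in RES than in CON. The log2 ratios were -0.59 for Leu-AAG, -0.58 for Leu-TAG, -0.84 for Leu-CAA, -0.78 for Leu-CAG and -0.21 for Leu-TAA. The Leu-TAA values rested on few reads, most of them of 25 to 28 nt. Those stood at 5.79 RPM in OVER, 4.41 RPM in RES and 5.11 RPM in CON. No counting interval was made for these ratios, so a lower level of Leu-TAA is not secure in either comparison.

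**Figure D1:**
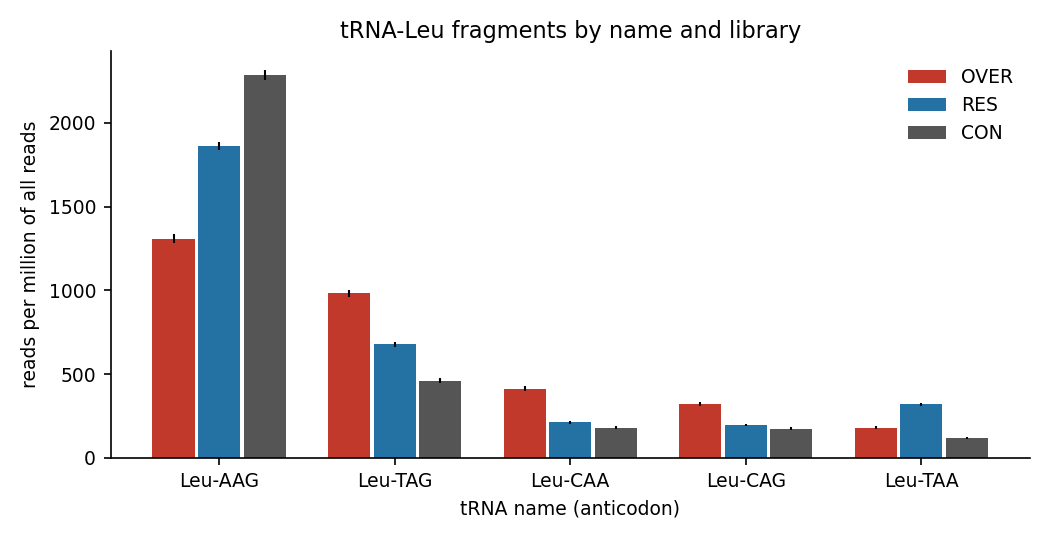
Level in RPM (vertical axis) for each tRNA-Leu name (horizontal axis), with 1 bar for each library in the order OVER, RES, CON and exact Poisson 95% intervals. Leu-AAG is lowest in OVER at 1309 RPM, and Leu-TAA is highest in RES at 318.8 RPM.

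At a threshold of 2-fold, 2 of the 5 isoacceptors, Leu-TAG and Leu-CAA, were higher in OVER than in CON, where 38.5% of the 52 nuclear tRNA names with at least 100 reads in the pair were. None of the 5 was 2-fold lower in OVER than in CON, against 9.62% of the nuclear names. These calls held for RPM with shared reads counted in full. Leu-AAG was past 2-fold lower with TMM factors (-1.19), with DESeq2 size factors (-1.50), in reads of 25 to 40 nt (-2.16) and with shared reads split equally among their names (-1.31). Leu-TAG passed as higher under none of those alternatives, and Leu-CAA (1.38) only with the split. In RES over CON, Leu-TAA was 1 of only 2 nuclear names that were 2-fold higher (3.85%) and had the highest ratio of the 52, while none of the 5 was among the 7.69% that were 2-fold lower. In OVER over RES none of the 5 passed in either direction, where 34.6% of the nuclear names were higher and 9.62% lower. Leu-TAA was chosen for this contrast, so its place is no finding. The median log2 ratio of the 5 isoacceptors was 0.90 in OVER over CON, against 0.67 over the nuclear names, and 0.25 in RES over CON, against -0.03. The serine tRNAs, which also have a long variable arm, had medians of 0.51 and 0.21 in those comparisons.

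**Figure D2:**
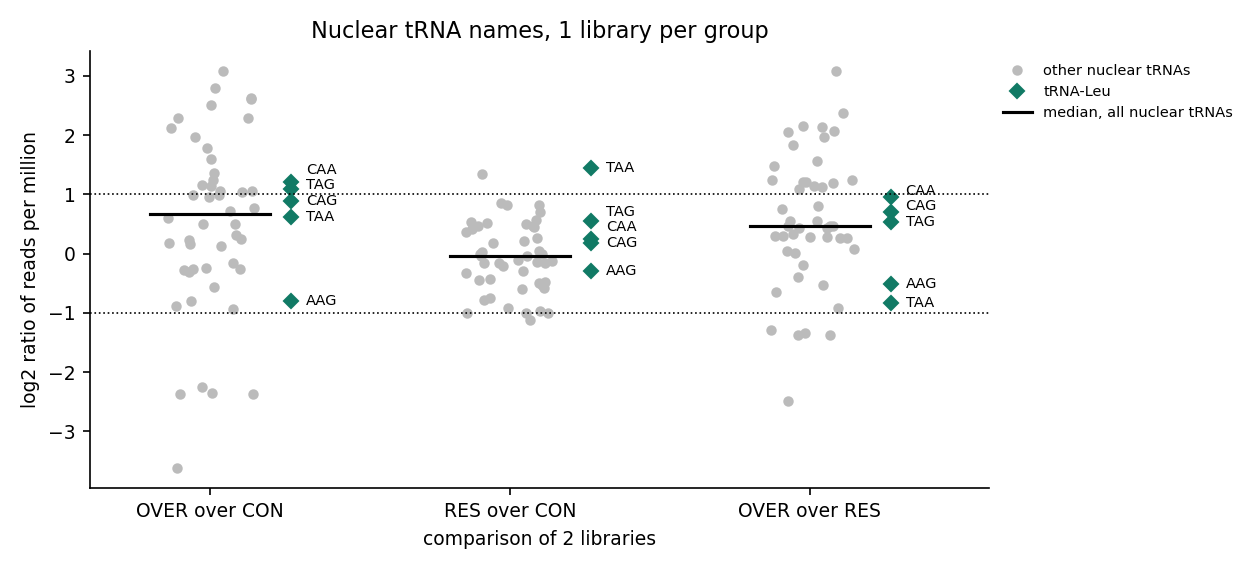
Log2 ratio of RPM (vertical axis) for each nuclear tRNA name in 3 comparisons of 2 libraries (horizontal axis), with tRNA-Leu names as diamonds, the other names as dots, medians as bars and 2-fold limits dotted. Leu-TAA stands highest in RES over CON at 1.45, where the median of all 52 names is -0.03.

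Names were shared between isoacceptors, and the sharing differed between libraries. Reads named Leu-AAG and no other tRNA of any amino acid made up 31.4% of Leu-AAG reads in OVER, 70.6% in RES and 85.9% in CON. Of Leu-TAG reads, 5.01% in OVER, 15.2% in RES and 28.1% in CON had that name alone. Leu-TAG values by name were therefore mostly values of sequence that it shares with Leu-AAG. Counted on reads with a single tRNA name, Leu-AAG was at 410.6 RPM in OVER and 1963 RPM in CON, and Leu-TAG at 49.2 RPM in OVER and 129.7 RPM in CON. The log2 ratio of OVER over CON for Leu-TAG was then -1.40, the reverse of the 1.09 found with shared reads counted in full. Leu-TAA was nearly free of this, since 95.7% of its reads in OVER, 99.05% in RES and 98.97% in CON carried no other tRNA name.

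Leu fragments came mostly from inside the tRNA, unlike nuclear tRNA fragments as a whole. Internal reads were 64.4% of Leu reads in OVER, 87.3% in RES and 87.6% in CON, and reads from the 5′ end were 34.3% in OVER, 12.04% in RES and 11.7% in CON. Over all nuclear tRNAs, 5′ reads were the majority, at 64.2% in OVER, 66.4% in RES and 76.7% in CON. By level, Leu 5′ reads stood at 679.9 RPM in OVER, 303.1 RPM in RES and 318.9 RPM in CON. Leu internal reads stood at 1277 RPM in OVER, 2198 RPM in RES and 2394 RPM in CON. OVER was thus the highest library in 5′ reads and the lowest in internal reads. Reads ending in the CCA tail, which is added to every tRNA after transcription, were 1.14% of Leu reads in OVER, 0.583% in RES and 0.576% in CON.

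Lengths separated the libraries more than levels did. The commonest length of Leu reads was 16 nt in OVER, 33 nt in RES and 36 nt in CON. Reads of 33 to 36 nt made up 18.6% of Leu reads in OVER, 48.9% in RES and 68.4% in CON. Reads of 15 to 20 nt made up 58.9% in OVER, 21.4% in RES and 6.58% in CON. Leu-TAA kept 23 nt as its commonest length in all 3 libraries, at 46.1% of its reads in OVER, 67.0% in RES and 60.6% in CON. Its reads of 15 to 20 nt were nonetheless most frequent in OVER, at 26.1%, against 5.05% in RES and 4.39% in CON. The serine tRNAs were alike in both respects, with 24 nt as the commonest length in all 3 libraries and 21.1% of reads at 15 to 20 nt in OVER, 4.55% in RES and 2.53% in CON.

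**Figure D3:**
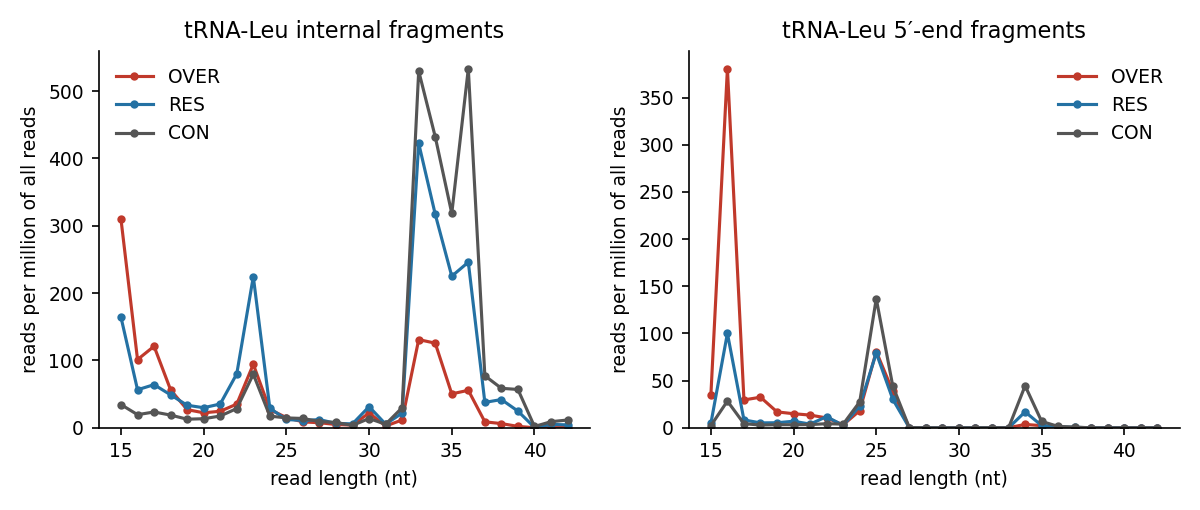
Level in RPM (vertical axis) by read length in nt (horizontal axis) for internal (left) and 5′-end (right) tRNA-Leu reads, with 1 line for each library. The 16 nt peak of the 5′ reads is highest in OVER, the 23 nt peak of the internal reads is highest in RES, and the internal peaks at 33 and 36 nt are highest in CON.

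The share of tRNA reads that Leu took depended on length. Among nuclear tRNA reads of 15 to 20 nt, Leu made up 15.9% in OVER, 17.8% in RES and 13.6% in CON. Among those of 33 to 36 nt, it made up 1.81% in OVER, 10.1% in RES and 4.93% in CON. At 29 to 32 nt, the lengths of most nuclear tRNA reads, it made up 0.0621% in OVER, 0.0548% in RES and 0.0300% in CON. In the class of 33 to 36 nt, Leu reads stood at 369.3 RPM in OVER, 1231 RPM in RES and 1867 RPM in CON. They were 5.06-fold lower in OVER than in CON, where the nuclear tRNA reads of that class were 1.86-fold lower. In RES the order was the other way round, Leu being 1.52-fold lower than in CON and nuclear tRNA reads 3.10-fold lower.

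To place the reads, the deposited reads of Leu-AAG, Leu-CAA, Leu-CAG and Leu-TAA were joined by their overlaps into tRNAs of 85, 87, 86 and 86 nt ending in CCA. With at most 2 mismatches, 99.1% of Leu reads were placed in OVER, 99.01% in RES and 98.8% in CON, and positions count from 1 at the 5′ end. The anticodon stem of Leu-AAG began at base 28 and its anticodon lay at bases 35 to 37. Reads of Leu-AAG or Leu-TAG began at base 28, the first base of that stem, in 45.5% of cases in OVER, 68.2% in RES and 80.2% in CON. Starts at base 1 made up 33.3% in OVER, 10.6% in RES and 7.79% in CON, which was most of the remainder in OVER only. In RES and CON the commonest fragments thus ran from the start of the anticodon arm, through the uncut anticodon loop and the variable arm, to the T arm. In OVER the 16 nt 5′ read of Leu-AAG and Leu-TAG was commoner, with 2157 reads, against 941 of the 33 nt internal read.

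The 3′ ends lay mostly near 1 place in Leu-AAG, Leu-TAG and Leu-TAA, and less so in Leu-CAA and Leu-CAG. The first base of the T loop was base 63 in Leu-AAG, 65 in Leu-CAA, 64 in Leu-CAG and 64 in Leu-TAA, in each case with 22 bases after it. Reads ending at that base or up to 3 bases before it made up 36.05% of placed Leu reads in OVER, 65.6% in RES and 71.6% in CON. By isoacceptor, that share was 36.3% in OVER, 67.1% in RES and 76.5% in CON for Leu-AAG or Leu-TAG. For Leu-TAA it was 65.1% in OVER, 90.9% in RES and 79.4% in CON. For Leu-CAA it was 23.2% in OVER, 16.2% in RES and 8.002% in CON, and for Leu-CAG 27.3% in OVER, 24.8% in RES and 10.7% in CON. Reads that fitted Leu-CAA and Leu-CAG equally well, among them their shared 5′ reads, were placed on Leu-CAA only. The shares of Leu-CAA and Leu-CAG are therefore not comparable with each other. Leu-CAA and Leu-CAG were thus highest in OVER, where the others were lowest. Over all placed Leu reads, those ending exactly there made up 16.05% in OVER, 28.2% in RES and 26.7% in CON. Their last 6 bases, GTGGGT in the fragments printed above, ended 24.4% of all Leu reads, against 0.0295% of the reads of other nuclear tRNAs. These bases were taken from the joined Leu tRNAs, and whether other tRNAs hold them was not examined. The contrast therefore does not compare where reads end.

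**Figure D4:**
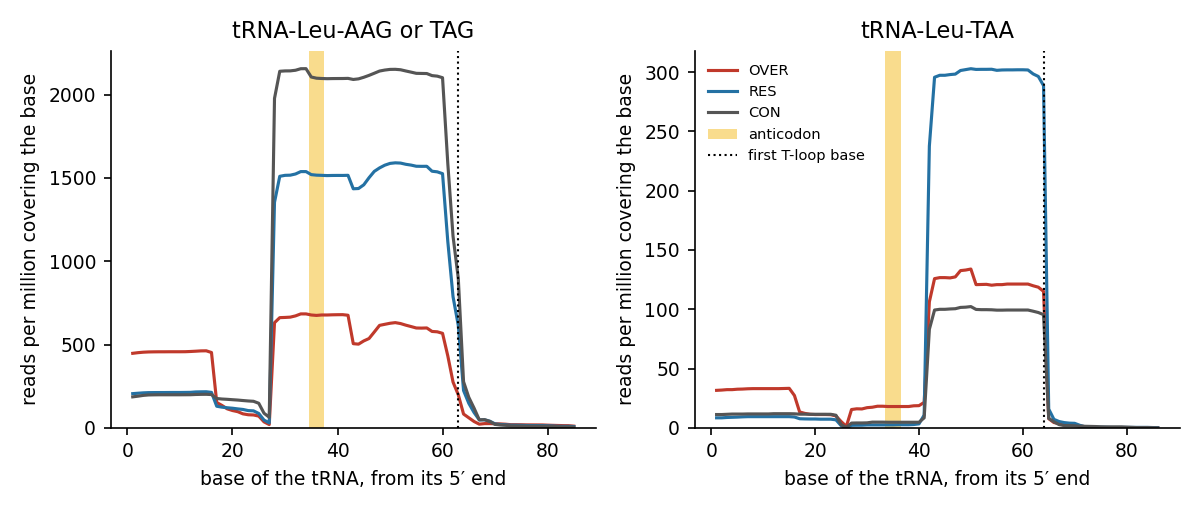
RPM of the reads that cover each base (vertical axis) along the tRNA counted from its 5′ end (horizontal axis), for Leu-AAG or Leu-TAG (left) and Leu-TAA (right), with the anticodon shaded and the first T-loop base dotted. Coverage from base 1 is lower, steps up at base 28 in the left panel and near base 42 in the right panel, and falls off at bases 63 and 64.

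The main fragment of the family was the internal Leu-AAG fragment of 32 to 39 nt. It stood at 338.1 RPM in OVER, 1099 RPM in RES and 1754 RPM in CON. The log2 ratio was -2.37 for OVER over CON, -0.68 for RES over CON and -1.70 for OVER over RES. It made up 17.1% of Leu reads in OVER, 43.6% in RES and 64.2% in CON. Without it the Leu total had the reverse order, at 1644 RPM in OVER, 1419 RPM in RES and 977.5 RPM in CON. Its commonest form, the 33 nt read printed above (bases 28 to 60), had 941 reads in OVER, 4869 in RES and 4680 in CON.

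A short form with the same start ran the other way. Internal Leu-AAG reads of 15 to 18 nt from base 28 stood at 164.6 RPM in OVER, 97.3 RPM in RES and 15.6 RPM in CON. That is a log2 ratio of 3.397 for OVER over CON and 2.64 for RES over CON. Most were the 15 nt read, which ends at base 42, after the anticodon loop and before the last bases of the stem, with 1270 reads in OVER, 1217 in RES and 142 in CON. Ends at base 42 made up 13.4% of the placed Leu-AAG or Leu-TAG reads in OVER, 5.38% in RES and 0.697% in CON.

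The anticodon of Leu-AAG was read as GAG. Of reads that spanned it, 39358 over the 3 libraries had G at the first anticodon base (A35G) and 2, both in RES, had A. By library the reads with G numbered 4664 in OVER, 16465 in RES and 18229 in CON. The share of G among A and G was 100% in OVER (exact binomial lower limit 99.9%), 99.99% in RES and 100% in CON. Read as up to 3 reads, a count of 0 for A is a share of up to 0.0643% in OVER and 0.0165% in CON. The exact binomial lower limits of G, 99.92% in OVER and 99.98% in CON, allow slightly more. Whether the G stands in the sheep genes or comes from inosine was not tested, since no genome sequence was used here. The deposited genome flag marked 99.45% of all Leu reads in OVER, 99.70% in RES and 99.66% in CON as matching the genome. That flag was not examined for the GAG reads alone.

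Read by the triplet, Leu-TAG was a minor tRNA and was lower in OVER. Reads with the TAG triplet stood at 58.2 RPM in OVER, 86.1 RPM in RES and 110.1 RPM in CON. Reads with GAG stood at 562.7 RPM in OVER, 1251 RPM in RES and 1826 RPM in CON. The log2 ratio of OVER over CON was -0.92 for TAG and -1.70 for GAG, so both were lower in OVER. TAG made up 9.37% of the GAG and TAG reads in OVER (8.58% to 10.2%), 6.44% in RES and 5.69% in CON. Of the GAG reads, 35.1% in OVER, 8.56% in RES and 1.72% in CON carried the Leu-TAG name as well, although their triplet is not TAG. The higher level of Leu-TAG in OVER thus held for the name and was reversed for the triplet.

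The 5′ reads had a short form of about 16 nt and a long form of about 25 nt, with opposite orders. Both forms were counted in 5′ reads classed as exact, which are fewer than all reads annotated to the 5′ end. For Leu-AAG and Leu-TAG, which share their 5′ sequence, reads of 15 to 18 nt stood at 306.7 RPM in OVER, 79.6 RPM in RES and 21.2 RPM in CON. Those of 24 to 26 nt stood at 52.5 RPM in OVER, 60.9 RPM in RES and 79.9 RPM in CON. The log2 ratio of OVER over CON was 3.85 for the short form and -0.61 for the long one. The number of short reads per long read was 5.84 in OVER, 1.31 in RES and 0.266 in CON.

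The other isoacceptors showed the same pair of forms. For Leu-CAG and Leu-CAA, which share their 5′ sequence, the short form stood at 93.03 RPM in OVER, 18.8 RPM in RES and 6.31 RPM in CON. The long form stood at 64.0 RPM in OVER, 52.5 RPM in RES and 97.7 RPM in CON. For Leu-TAA, the short form stood at 19.8 RPM in OVER, 1.82 RPM in RES and 0.601 RPM in CON, and the long form at 6.52 RPM in OVER, 4.86 RPM in RES and 9.21 RPM in CON. Short reads per long read were 1.45 in OVER, 0.357 in RES and 0.0646 in CON for Leu-CAG and Leu-CAA, and 3.04 in OVER, 0.375 in RES and 0.0652 in CON for Leu-TAA. In all 3 sequences the short form was highest in OVER and the long form highest in CON. The share of reads of 15 to 20 nt in the whole library had the same order as the short forms, and its part in them was not tested.

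Another 5′ form, seen after the lengths were known, reached the anticodon and was largely a form of Leu-AAG and Leu-TAG. Reads of 33 to 35 nt stood at 4.46 RPM in OVER, 16.9 RPM in RES and 43.6 RPM in CON, a log2 ratio of -3.29 for OVER over CON. For Leu-CAG and Leu-CAA the same lengths gave 7 reads in OVER, 2 in RES and 9 in CON, and for Leu-TAA none in any library, which allows up to 0.362 RPM in OVER, 0.228 RPM in RES and 0.300 RPM in CON. The 34 nt reads end at the base before the anticodon, inside the anticodon loop. Their commonest versions, shown because they differ at base 27, the last base before the anticodon stem, have that base in capitals.
Leu-AAG and Leu-TAG 5′, 34 nt, with G27C: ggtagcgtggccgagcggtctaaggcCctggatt
Leu-AAG and Leu-TAG 5′, 34 nt, as joined: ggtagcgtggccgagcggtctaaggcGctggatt
Leu-AAG and Leu-TAG 5′, 34 nt, with G27T: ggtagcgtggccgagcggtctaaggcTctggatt

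In 5′ reads of Leu-AAG or Leu-TAG that crossed it, base 27 was more often changed than kept. Of 37 such reads in OVER, 248 in RES and 477 in CON, G27C was seen in 32.4% in OVER (18.01% to 49.8%), 56.5% in RES (50.0% to 62.7%) and 49.3% in CON (44.7% to 53.9%). G27T was seen in 21.6% in OVER, 12.1% in RES and 16.4% in CON, and G27A in 0 reads in OVER, 2.42% in RES and 2.10% in CON. The G27C interval of OVER overlapped that of CON and lay just below that of RES. The base at this place, before the anticodon stem, is a dimethylated guanosine in many eukaryotic tRNAs, made by TRMT1, which can be misread by reverse transcriptase. Whether the forms come from different tRNA genes or from misreading was not tested.

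Other bases of the 5′ reads varied less. In Leu-AAG and Leu-TAG 5′ reads, G10A was seen in 5.48% in OVER, 5.76% in RES and 5.05% in CON. C12T was seen in 3.59% in OVER, 7.04% in RES and 6.79% in CON. In Leu-CAG and Leu-CAA 5′ reads, G10A was seen in 4.66% in OVER, 3.10% in RES and 1.43% in CON. The share of G10A was thus nearly level across libraries in one 5′ sequence and highest in OVER in the other.

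**Figure D5:**
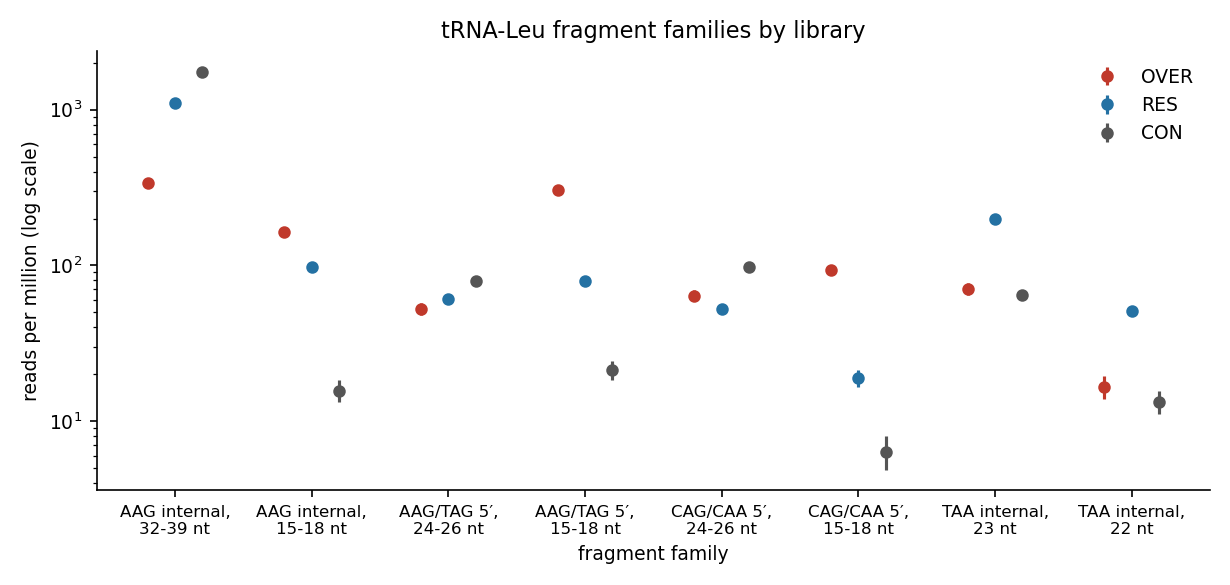
RPM on a log scale (vertical axis) of 8 groups of tRNA-Leu fragments by isoacceptor, end and length (horizontal axis), with 1 dot for each library in the order OVER, RES, CON and exact Poisson 95% intervals. The 5′ fragments of 15 to 18 nt are highest in OVER (306.7 RPM for Leu-AAG and Leu-TAG), and the 23 nt Leu-TAA fragment is highest in RES (198.5 RPM).

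The level of Leu-TAA in RES rested on a pair of sequences. The 23 nt read printed above, bases 42 to 64, ran from the end of the anticodon stem through the variable arm and one strand of the T stem to the first base of the T loop. It stood at 70.6 RPM in OVER (64.98 to 76.5), 198.5 RPM in RES (190.9 to 206.2) and 64.7 RPM in CON (59.8 to 69.9). It was thus highest in RES, while the intervals of OVER and CON overlapped. The 22 nt read, which lacks the first base, stood at 16.5 RPM in OVER, 50.9 RPM in RES and 13.2 RPM in CON. The log2 ratio of RES over CON was 1.62 for the 23 nt read and 1.95 for the 22 nt read. Both together held 48.8% of Leu-TAA reads in OVER, 78.2% in RES and 67.0% in CON.

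These reads made up most of the difference between RES and CON. Leu-TAA differed by 202.5 RPM, of which the 23 nt and 22 nt reads held 84.7%, and the 23 nt read alone 66.1%. The remaining Leu-TAA reads stood at 91.3 RPM in OVER, 69.5 RPM in RES and 38.5 RPM in CON, with a log2 ratio of RES over CON of 0.85. They were highest in OVER. Leu-TAA 5′ reads stood at 31.7 RPM in OVER, 8.44 RPM in RES and 11.2 RPM in CON, so the higher level in RES lay in the internal reads, at 146.6 RPM in OVER, 310.3 RPM in RES and 105.2 RPM in CON. The epithelial mir-200 sum was 1094 RPM in OVER, 133.9 RPM in RES and 463.9 RPM in CON. Its relation to the level of Leu-TAA was not tested.

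Other internal Leu-TAA reads differed in their order. A 22 nt read from base 42 that lacks the last base of the 23 nt read had 26 reads in OVER, 82 in RES and 13 in CON, with a log2 ratio of RES over CON of 2.26. The 24 nt read over the anticodon (bases 27 to 50), named as one of the reads lowest in RES relative to CON, had 80 reads in OVER, 12 in RES and 20 in CON, and a log2 ratio of RES over CON of -1.13. No Leu-TAA read was annotated to the 3′ end without CCA, and reads with CCA numbered 1 in OVER, 2 in RES and 0 in CON.

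The corresponding fragments of Leu-CAA and Leu-CAG were shorter and followed another order. The 17 nt read of Leu-CAA, bases 49 to 65, had 305 reads in OVER, 89 in RES and 41 in CON, a log2 ratio of OVER over CON of 3.16. The 15 nt read shared by Leu-CAA and Leu-CAG had 81 reads in OVER, 132 in RES and 7 in CON, a log2 ratio of 3.801 for OVER over CON and 3.84 for RES over CON. Both were lowest in CON and end, like the 23 nt read of Leu-TAA, at the first base of the T loop.

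Set beside other tRNAs, the leucine tRNAs of the mitochondria and the serine tRNAs moved otherwise. Mitochondrial tRNA-Leu stood at 55.0 RPM in OVER, 19.8 RPM in RES and 24.1 RPM in CON, so it was not higher in RES, unlike nuclear Leu-TAA. Nuclear tRNA-Ser stood at 1349 RPM in OVER, 1031 RPM in RES and 1056 RPM in CON. Among the 52 nuclear tRNA names compared, the 5 whose log2 ratios to CON lay nearest to those of Leu-TAA, by Euclidean distance over the 2 ratios, were Arg-TCG (0.55), Val-TAC (0.80), Arg-ACG (0.96), Sup-TCA (0.98) and Leu-TAG (1.02). Arg-TCG had ratios of 1.15 in OVER over CON and 1.34 in RES over CON. The comparisons with CON share the CON library.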

How the data were processed

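The files deposited by the authors hold 1 line for each distinct sequence, with its read count, length, genome flag and annotation, per the file headers. The deposited counts are whole reads with no normalization. The library kit and a size selection are given per the labels' protocols. EdgeR is named in the submitters' processing notes. Which aligner, annotation tool and build were used is not given in the sources used here. Within each group the 3 tables had the same sequences and counts, and annotations differed in 0 to 3 sequences, so 1 table per group was used, with 8287937 reads in OVER, 13160116 in RES and 9983895 in CON.

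Counts were scaled to 1000000 reads per library (RPM). A read with several tRNA names counted fully for every name. Intervals are exact 95% Poisson for levels and Clopper-Pearson for shares and ratios, and a count of 0 was read as up to 3 reads. The planned edgeR test could not be run with 1 library per group, and a 2-fold difference at 100 reads or more took the place of a threshold. The ratio code was tested on simulated data. Members, lists and fragment groups were chosen with earlier results of these data known. By the naming rule, all 5 isoacceptors and the commonest or most different sequences of each were named, and a few low ones are left out. The 33 nt Leu-TAG read, the 25 nt 5′ read of Leu-AAG and Leu-TAG and the 34 nt reads were added after their values were seen. Alternatives were TMM factors (edgeR 4.0.16) and DESeq2 1.42.0 size factors over tRNAs, reads of 25 to 40 nt, genome-matching reads, an equal split of shared reads and no filter. Python 3.11.15 and R 4.3.3 were used.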

Additional observations from a re-analysis of the deposited data

Results flagged for a closer look

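The 5′ reads of Leu-CAG and Leu-CAA that were classed as exact stood on opposite sides of CON in OVER and RES. Their level was 177.0 RPM in OVER, 81.9 RPM in RES and 110.9 RPM in CON, a log2 ratio to CON of 0.67 in OVER and -0.44 in RES. The exact 5′ reads of Leu-TAA did the same, with 27.6 RPM in OVER, 7.29 RPM in RES and 10.5 RPM in CON. Their log2 ratio to CON was 1.39 in OVER and -0.53 in RES. All Leu-TAA reads annotated to the 5′ end stood at 31.7 RPM in OVER, 8.44 RPM in RES and 11.2 RPM in CON. With 1 library per group, these differences were not tested. DESeq2 size factors move every OVER over CON ratio by -0.70, which is more than the size of the Leu-CAG and Leu-CAA ratio in OVER.

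Reads annotated as antisense to a nuclear tRNA-Leu, which no comparison above uses, numbered 7 in OVER, 1 in RES and 0 in CON. They were picked out because the count in OVER is above the 3 reads that a count of 0 allows in CON.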

How the results depend on the processing

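No paired analysis was possible because the 3 tables of each group are the same, and for that reason leaving out each replicate was not run. The 48 alternative values were of the summed level, of the Leu-TAA level and of the counts of isoacceptors 2-fold apart. Of these, 24 moved by less than counting error or 1.5 times and 24 by more. Of the latter, 3, all of Leu-TAA, changed sign, to -0.082, -0.26 and -0.21. No counting interval was made for them, and the values in reads of 25 to 40 nt rested on few reads. A reversal of direction is therefore not secure. Values are given in the order OVER over CON, RES over CON, OVER over RES. The summed log2 ratio (-0.46, -0.12, -0.35) was -0.85, -0.086 and -0.76 with TMM factors, -1.16, -0.24 and -0.92 with DESeq2 size factors, and -2.01, -0.59 and -1.41 in reads of 25 to 40 nt. The Leu-TAA ratio (0.62, 1.45, -0.84) was 0.23 for OVER over CON and -1.25 for OVER over RES with TMM factors, -0.082, 1.33 and -1.42 with DESeq2 size factors, and -0.26, -0.21 and -0.047 in reads of 25 to 40 nt. The range leaves out the 22 and 23 nt reads of Leu-TAA and all its other reads below 25 nt. Without the 22 and 23 nt pair alone, its ratio of RES over CON was still 0.85. The counts (2, 1, 0) hid changes of member and direction. For OVER over CON they were 1 with either set of factors (Leu-AAG lower), 2 in reads of 25 to 40 nt (Leu-AAG and Leu-TAG lower) and 2 with shared reads split (Leu-AAG lower, Leu-CAA higher), in place of Leu-TAG and Leu-CAA higher. For RES over CON the count was 0 in reads of 25 to 40 nt. For OVER over RES it was 1 with TMM factors (Leu-TAA lower), 2 with DESeq2 size factors (Leu-TAA and Leu-AAG lower), 1 in reads of 25 to 40 nt (Leu-AAG lower) and 1 with shared reads split (Leu-CAA higher). Of the other isoacceptors, 8 ratios changed sign. In reads of 25 to 40 nt these were OVER over CON for Leu-TAG (-1.39), Leu-CAA (-0.62) and Leu-CAG (-0.55), RES over CON for Leu-TAG (-0.58), Leu-CAA (-0.84) and Leu-CAG (-0.78), and OVER over RES for Leu-TAG (-0.81). The last was OVER over RES for Leu-TAG with DESeq2 size factors (-0.041). The cause was not tested. Genome-matching reads moved the summed and Leu-TAA ratios by less than counting error and none of the counts, and dropping the filter none of the counts. Depth limits the 3′ and CCA reads of Leu-TAA, all at 2 reads or fewer.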
